A study of Homo sapiens and Mus musculus with 20 samples.

Results

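Accessible chromatin was examined at 10 genes of propionate and butyrate metabolism, namely the acyl-CoA synthetase genes ACSS1, ACSS2, ACSS3 and ACSM3, the propionyl-CoA carboxylase genes PCCA and PCCB, the epimerase gene MCEE, and ACADS, ACAT1 and BDH1, which act in butyryl-CoA oxidation and ketone body metabolism. The genes were chosen by function, with earlier results of these data known. Their regions were all merged peak intervals that lay in a GENCODE gene body or within 5 kb of it, which gave 141 of the 252173 regions found in SW480 cells. SW480 is an established human colorectal adenocarcinoma line. The 4 groups of 3 ATAC-seq libraries came from an assay in which Tn5 transposase marks open chromatin. Cells received 10 mM sodium propionate (NaPr) or none in the NaPr experiment, and 1 mM sodium butyrate (NaBu) or none in the NaBu experiment. Treatment lasted 12 to 16 h and 50000 viable cells entered each reaction. Each experiment had untreated libraries of its own and its own date, so that dose, date and compound cannot be told apart between experiments and their values are given side by side. The labels do not say that replicates came from separate cultures, so p-values measure the spread between these libraries, which may be technical.

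Fermentation of fibre by the gut flora yields propionate and butyrate, and the normal colon epithelium burns butyrate as a main fuel. A cell can metabolise either acid only after a synthetase has joined it to coenzyme A. Propionyl-CoA is then carboxylated by propionyl-CoA carboxylase, turned over by methylmalonyl-CoA epimerase and a mutase, and enters the citric acid cycle as succinyl-CoA. Butyryl-CoA is oxidised in mitochondria by short-chain acyl-CoA dehydrogenase, the product of ACADS, and the acetoacetyl-CoA made downstream is split by a thiolase, the product of ACAT1, or diverted into ketone bodies, which BDH1 interconverts.

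Accessibility was read as a percentile rank. The strongest peak of a region, by its deposited −log10 p, was ranked among all regions with a peak in the same library, so that 100 is the strongest and a region without a peak is at 0. Changes are treated minus untreated mean ranks in percentile points with a standard error (SE), and a region was called when its adjusted p from limma was below 0.05. Of the 141 regions, 53 had a peak in at least 2 of the 6 libraries and were tested in the NaPr experiment and 73 in the NaBu experiment. Altogether 90 were tested in 1 or both, 36 in both and 51 in neither, the last with a peak in 1 library of an experiment at most. The lists held 108442 to 144398 intervals per library. The mean number of tags (aligned read ends extended by the peak caller) covering a background position was 0.936 to 2.36 in the NaPr experiment and 2.11 to 3.03 in the NaBu experiment. Promoters of 6 of 6 epithelial markers (EPCAM, KRT8, KRT18, CDH1, CDX2 and VIL1) had a peak in all 12 libraries. Of 6 markers of other cell types, PTPRC, CD3E and PECAM1 had none, whereas COL1A1, COL1A2 and DES had a peak in all 12.

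After NaPr, 4 of the 53 tested regions rose in rank and 1 fell, compared with 3.1% of all 124067 tested regions called higher and 2.22% called lower. The 4 regions that rose lay in an intron of PCCA, in an intron of ACSM3, upstream of ACSS2 and in an intron of ACSS2, and the region that fell was the promoter of ACADS. The median change was 2.01 points over the 53 regions and 0.526 over all regions. In limma an unadjusted p below 0.05 was found for 14 of the 53 and for 28645 of all 124067 tested regions. These calls depended on the number of libraries. Without any 1 treated replicate, or without untreated replicate 2 or 3, 0 regions of these genes passed the limma threshold, with 11 to 14 at an unadjusted p below 0.05, and without untreated replicate 1 there were 2 higher and 0 lower. With ranks taken from the fold enrichment, limma called 0 of them, with 8 at an unadjusted p below 0.05, and 0 of all regions.

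After NaBu, 18 of the 73 tested regions rose and 14 fell, against 24% of all 123730 tested regions called higher and 13.1% called lower. The share that rose was 24.7%, near the background, and the share that fell was 19.2%. The calls were spread over 8 of the 10 genes, and none was made at PCCB or ACAT1, where 1 and 2 regions were tested and limma gave 0 at an unadjusted p below 0.05. The median change was 1.40 points, and it was 2.92 over all regions, where a region without a peak counts as 0 and the 3 treated lists held more intervals (126008 to 128955) than the 3 untreated lists (108442 to 120971). With tied average ranks in place of this scale, 13 of these regions rose and 18 fell, and 51.3% rather than 64.7% of all calls were higher. With tags at the summit scaled by the background, 7 rose and 13 fell among 43 regions with a peak in all 6 libraries, and 47.3% of all calls were higher. For NaPr the same scaling put 4 higher and 0 lower among 30 regions, with 92.5% of all calls higher around a median of 0.21 on the log2 scale, and scaling by the median put 5 higher and 6 lower, with 38.7% of all calls higher. When 1 NaBu library was left out, 12 to 16 regions were called higher and 8 to 14 lower, counts that include regions called only then. The lower calls numbered 8 without untreated replicate 2 and 9 without treated replicate 2. Of the 32 calls, 11 of the 18 higher and 8 of the 14 lower regions were called without each of the 6 libraries in turn. Some of these regions, at PCCA, ACSS1 and ACSS3, passed the filter only through the group with the higher ranks. For them a call that was kept is not separate support.

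**Figure D1:**
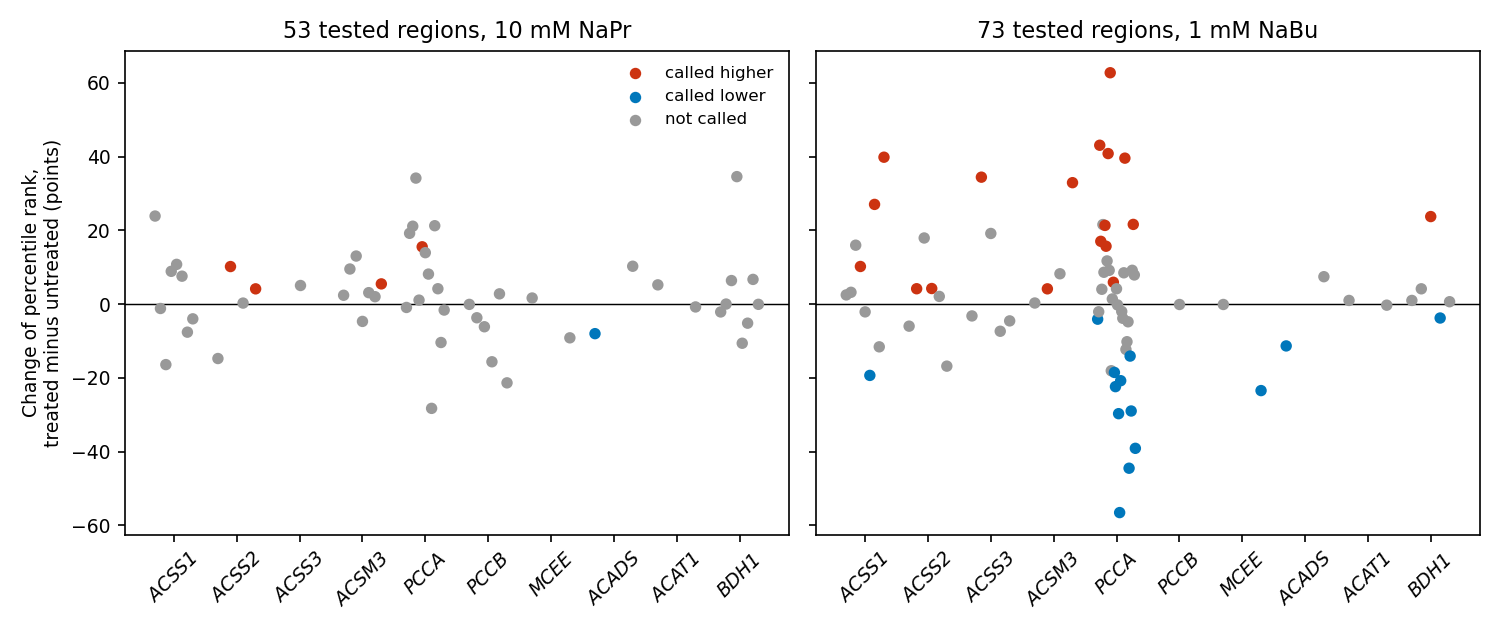
Change of percentile rank, treated minus untreated in percentile points, at each tested region of the 10 genes after 10 mM NaPr (left, 53 regions) and 1 mM NaBu (right, 73 regions). Each point is a region, ordered by position within its gene and coloured by its limma call, and PCCA holds 19 of the 32 NaBu calls, 9 higher and 10 lower.

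A region covered or lay within 1 kb of the canonical start in 9 genes, and ACSS3 had none. After NaPr the promoter of ACADS was called lower and the other 8 were not called, and 0.804% of 12810 regions over canonical starts of protein-coding genes were higher and 5.76% lower. After NaBu the promoter of ACSS2 rose and the promoters of ACADS and PCCA fell, where 9.34% of 12597 such regions were higher and 20.7% lower. The median change of the 9 promoters was −0.0732 points after NaPr and −0.0993 after NaBu, and that of all coding promoters was −0.912 and −0.678. Promoters of PCCB, BDH1 and ACAT1 were near the top of every list, with ranks of 97.4 to 99.9 over the 12 libraries. The promoter of ACSM3 was the weakest of the 9 in each library, at 71.5 to 83.4 in the NaPr experiment and 35.5 to 56.8 in the NaBu experiment.

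**Figure D2:**
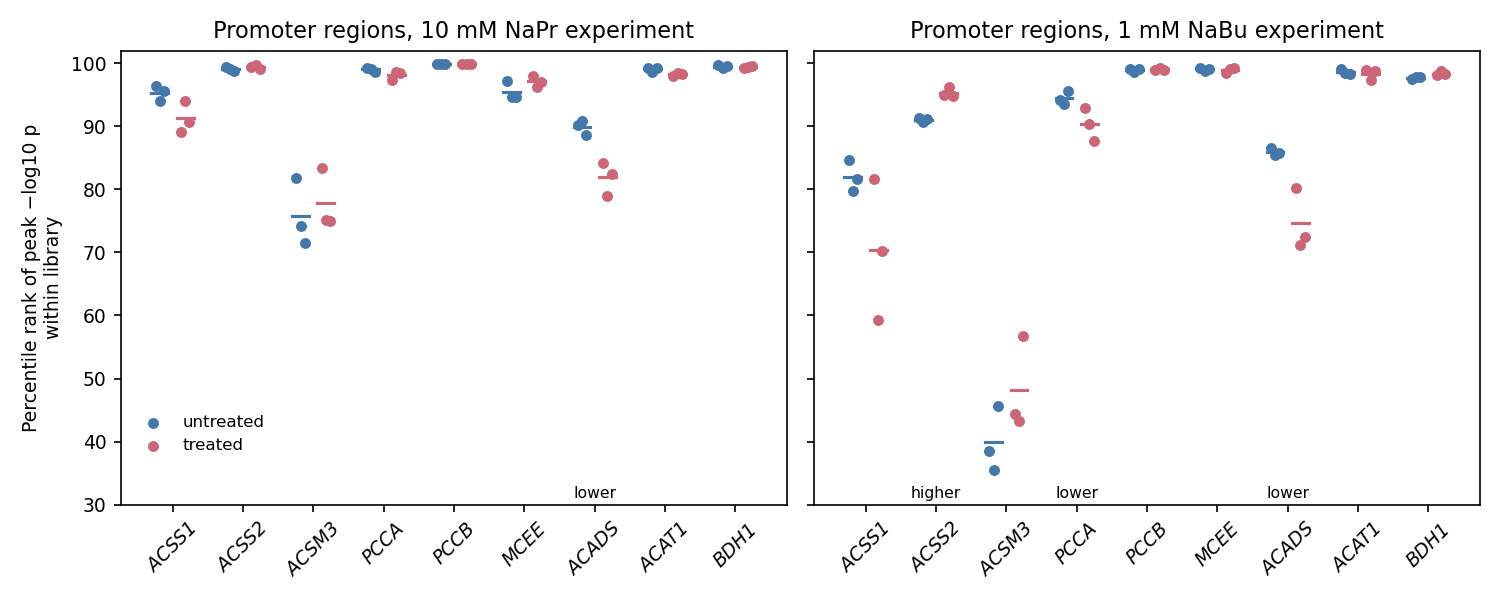
Percentile rank of the promoter region of 9 genes in each library of the NaPr (left) and NaBu (right) experiments, untreated in blue and treated in red. Points are libraries, bars are means of 3 libraries, the words mark regions called by limma, and the axis begins at 30. ACADS and PCCA lie lower in all 3 treated libraries of both experiments. ACSS2 and BDH1 lie higher in all 3 NaBu libraries, and PCCB and ACAT1 lower in all 3 NaPr libraries. Groups did not overlap in 26.2% (NaPr) and 48.7% (NaBu) of all tested regions.

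Regions of 4 genes were called in both experiments, which is 80% of the 5 NaPr calls and 12.5% of the 32 NaBu calls, and the direction was the same in each of the 4. Over all regions 3961 were called in the same direction in both, which is 60% of NaPr and 8.63% of NaBu calls, and 97.8% of the 4052 regions called in both had the same direction. Shared calls were thus common throughout, and whether these genes differ from the rest was not tested. The untreated libraries were separate. These were the promoter of ACADS, which fell, and an intron of ACSM3, a region upstream of ACSS2 and an intron of PCCA, which rose. The sequences of the promoter and of both introns are shown because they carry the calls that 2 experiments share. The promoter runs from 250 bases before to 50 after the RefSeq start on GRCh38.p14, and the introns are given as the 200 bases around the highest summit, plus strand, on hg38. Capitals mark matches to motifs sought on both strands.
ACADS promoter, chr12:120725576-120725875, plus strand: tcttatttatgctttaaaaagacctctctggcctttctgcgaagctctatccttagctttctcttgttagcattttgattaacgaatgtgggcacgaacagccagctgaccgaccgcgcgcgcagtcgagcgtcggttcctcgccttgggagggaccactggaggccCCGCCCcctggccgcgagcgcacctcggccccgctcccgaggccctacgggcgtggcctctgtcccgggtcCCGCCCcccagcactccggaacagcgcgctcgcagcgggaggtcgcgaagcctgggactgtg
PCCA intron, chr13:100392879-100393078, plus strand: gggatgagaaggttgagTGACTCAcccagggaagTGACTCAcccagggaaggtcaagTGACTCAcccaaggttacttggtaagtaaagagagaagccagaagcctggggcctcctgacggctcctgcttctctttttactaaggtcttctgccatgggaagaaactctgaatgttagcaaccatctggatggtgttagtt
ACSM3 intron, chr16:20774770-20774969, plus strand: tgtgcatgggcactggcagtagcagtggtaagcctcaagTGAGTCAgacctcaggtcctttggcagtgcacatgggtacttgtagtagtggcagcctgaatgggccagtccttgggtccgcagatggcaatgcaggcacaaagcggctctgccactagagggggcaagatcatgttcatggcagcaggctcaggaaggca
The capitals are 2 GC boxes (GGGCGG or its complement) at ACADS, 3 AP-1 matches (TGANTCA) in the PCCA intron and 1 AP-1 match in the ACSM3 intron. A GC box was present in 45% of 35116 RefSeq promoters, and an AP-1 match in 19% of the summit windows of 164146 regions tested in 1 or both experiments and in 16 of the 90 tested regions of these genes (17.8%). The window upstream of ACSS2 held no match to the 8 motifs sought, which were TGANTCA for AP-1, TGACGTCA for CRE, GGGCGG for the GC box, CACGTG for the E-box, GCGCATGC for NRF1, CCGGAAGT for ETS, AAGATGGC for YY1 and CAAAGTCCA for HNF4. A match is a description of the letters and not of binding.

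**Figure D3:**
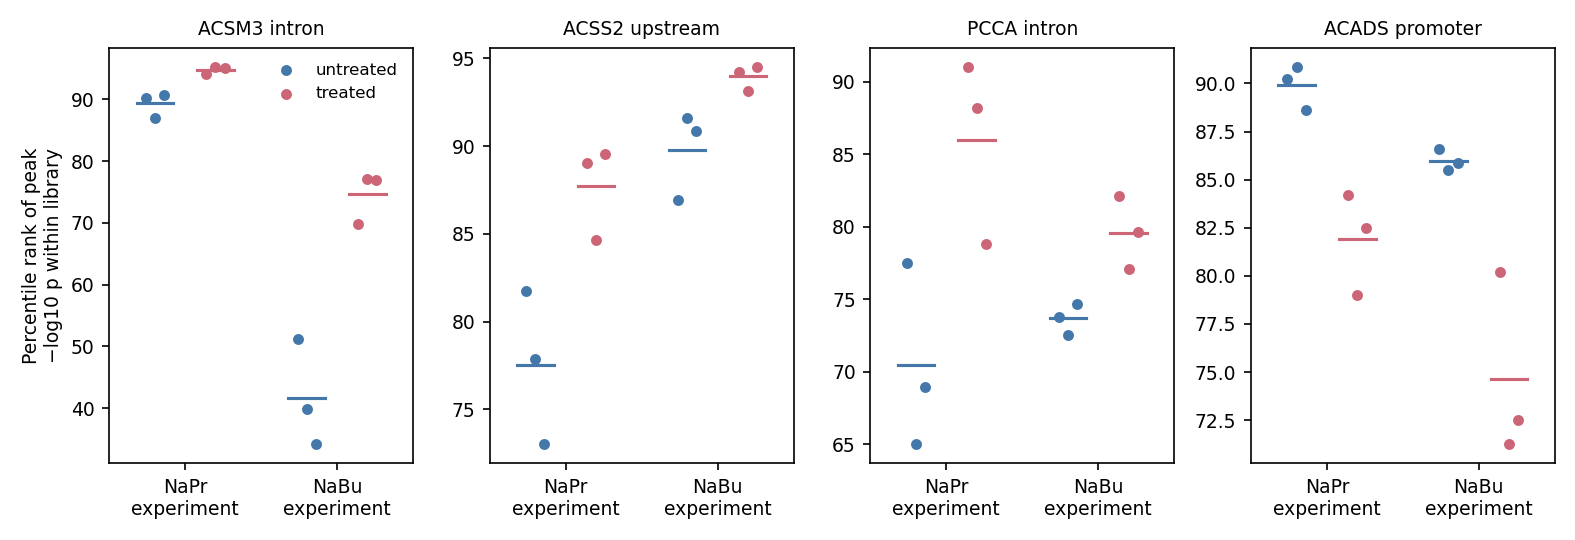
Percentile ranks at the 4 regions called in both experiments, by library, untreated in blue and treated in red, with bars for means of 3 libraries and a separate axis range for each panel. The regions were picked by their calls on these ranks, and treated and untreated ranks do not overlap in any of the 8 comparisons, as in 26.2% (NaPr) and 48.7% (NaBu) of all tested regions. The ACSM3 intron stood near 90 in untreated libraries of the NaPr experiment but at 34.1 to 51.2 in those of the NaBu experiment.

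ACSS2 encodes the acetyl-CoA synthetase of cytosol and nucleus and lies on the plus strand of chromosome 20 (34872146 to 34927962). Its promoter region, chr20:34875866-34877065, had ranks of 91.3, 90.8 and 91.2 in untreated and 95.0, 96.2 and 94.8 in NaBu-treated libraries. All treated libraries were above all untreated ones, and the region rose by 4.23 points (SE 0.68, limma adjusted p = 0.00227). In the NaPr experiment the same region stood at 99.4, 99.1 and 98.8 without and 99.4, 99.7 and 99.1 with NaPr, and the groups overlapped (change 0.28, SE 0.62, limma adjusted p = 0.813). The NaBu call was kept without each library in turn but not with ranks of fold enrichment (limma adjusted p = 0.118) or with scaled tags (0.161 by background). The 300 bases at this start are shown, with 3 GC boxes in capitals.
ACSS2 promoter, chr20:34876362-34876661, plus strand, GRCh38.p14: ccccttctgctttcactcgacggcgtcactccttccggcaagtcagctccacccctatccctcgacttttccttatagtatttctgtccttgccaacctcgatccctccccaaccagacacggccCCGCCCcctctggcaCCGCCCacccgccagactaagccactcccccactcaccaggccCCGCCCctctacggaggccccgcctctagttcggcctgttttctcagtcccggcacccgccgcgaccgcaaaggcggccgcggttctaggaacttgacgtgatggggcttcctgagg
The region upstream, chr20:34874103-34874345, lies within 1 kb of another annotated start of ACSS2. It had ranks of 81.7, 77.9 and 73.0 without and 89.0, 84.7 and 89.5 with NaPr (change 10.2, SE 2.35, limma adjusted p = 0.0340). In the NaBu experiment it had 86.9, 91.6 and 90.9 without and 94.2, 93.2 and 94.5 with NaBu (change 4.17, SE 1.22, limma adjusted p = 0.0281). By rank it was thus higher in every treated library of either experiment. Neither call held without treated replicate 1, 2 or 3, with limma adjusted p-values of 0.0832 to 0.125 after NaPr and 0.0679 to 0.102 after NaBu, and the NaPr call was also lost without untreated replicate 2 or 3 (0.109 and 0.112). Both were lost by fold ranking (limma adjusted p = 0.515 after NaPr and 0.349 after NaBu), without a filter (0.128 and 0.0579) and with tags scaled by background (0.0568 and 0.330). Tags over background overlapped after NaBu, at 115, 125 and 123 without and 139, 122 and 132 with it. Another region, chosen after its values were seen, lies in an intron at chr20:34907135-34908361. It rose after NaPr from 91.5, 92.4 and 90.4 to 96.0, 95.5 and 95.2 (change 4.14, SE 0.91, limma adjusted p = 0.0293), was lost without any 1 library, and was not called after NaBu.

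ACSS1, whose product is the mitochondrial acetyl-CoA synthetase, lies on the minus strand of chromosome 20 (25006230 to 25058980). None of its 8 regions was called after NaPr in limma, with 1 at an unadjusted p below 0.05. After NaBu 3 of 9 rose and 1 fell. Over all tested regions 3.1% were called higher and 2.22% lower after NaPr, and 24% and 13.1% after NaBu. Whether ACSS1 differs from the rest was not tested. The promoter region chr20:25056989-25058633 had ranks of 84.6, 79.7 and 81.6 without and 81.7, 59.3 and 70.2 with NaBu. Treated replicate 1 overlapped the untreated libraries, and the region was not called (change −11.6, SE 4.83, limma adjusted p = 0.0930). It was called without treated replicate 1 (change −17.2, limma adjusted p = 0.0155) and with tags scaled by background, where the log2 change was −0.79 (limma adjusted p = 0.000502). Before NaPr treatment its ranks were 96.4, 94.0 and 95.6 and after it 89.2, 94.1 and 90.8 (change −3.99, SE 1.28, limma adjusted p = 0.0908). A second RefSeq start lies within the gene, and the region over it, chr20:25032141-25033472, was picked after its values were seen. Its ranks were 71.5, 71.0 and 69.8 without and 80.1, 83.1 and 79.7 with NaBu (change 10.2, SE 1.75, limma adjusted p = 0.00304). Every NaBu library was above every untreated one there, and the call held without each library in turn (0.0102 to 0.0137), but not with ranks of fold enrichment (0.0531). In the NaPr experiment it stood at 98.2, 98.6 and 98.5 without and 97.5, 96.3 and 97.8 with NaPr and was not called. Both starts are shown, since the upstream one holds 4 GC boxes and the internal one none of the 8 motifs.
ACSS1 upstream start, chr20:25058090-25058389, minus strand, GRCh38.p14: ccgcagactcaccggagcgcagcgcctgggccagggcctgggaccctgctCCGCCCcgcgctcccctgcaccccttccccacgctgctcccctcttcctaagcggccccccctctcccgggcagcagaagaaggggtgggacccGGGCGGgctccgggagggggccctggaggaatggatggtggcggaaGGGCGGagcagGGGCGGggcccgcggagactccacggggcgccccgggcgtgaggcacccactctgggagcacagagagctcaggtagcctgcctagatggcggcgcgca
ACSS1 internal start, chr20:25032657-25032956, minus strand, GRCh38.p14: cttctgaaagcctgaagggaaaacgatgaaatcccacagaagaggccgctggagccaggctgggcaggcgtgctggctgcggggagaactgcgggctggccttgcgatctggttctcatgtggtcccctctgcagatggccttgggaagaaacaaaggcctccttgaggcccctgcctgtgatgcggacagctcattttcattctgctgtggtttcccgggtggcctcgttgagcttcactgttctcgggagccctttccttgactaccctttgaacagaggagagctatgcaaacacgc
The largest rise at ACSS1 after NaBu was just upstream of the promoter, at chr20:25059281-25059606. It was present in 1 of 3 untreated libraries at a rank of 2.95 and in all treated libraries at 41.4, 45.6 and 35.5 (change 39.8, SE 5.46, limma adjusted p = 0.00126). It passed the filter only through the treated libraries. Tags over background were 20.8 in the untreated library with a peak and 27.1, 26.4 and 23 in the treated ones, a smaller difference than the ranks show. The largest fall was in an intron, chr20:25039860-25040575, from 24.2, 26.0 and 24.0 to a peak in treated replicate 3 alone at 16.3 (change −19.3, SE 5.96, limma adjusted p = 0.0341). It passed the filter only through its untreated libraries, so the p-value is not separate support for a fall. That call was lost without each library except treated replicate 3, with limma adjusted p-values up to 0.0944, and without a filter (0.0539). Tags over background in this intron were 12.2, 11.4 and 12.1 without NaBu and 11.9 in treated replicate 3. Where a library had no peak, the tags are not known.

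ACSS3, a mitochondrial synthetase with a preference for propionate, had no peak within 1 kb of its canonical start in any library, and 6 regions in all. In the NaPr experiment 1 of them was tested and not called. After NaBu 1 of the 5 tested rose, where 24% of all tested regions were called higher and 13.1% lower. The region that rose was chr12:80937870-80938098. Untreated libraries had no peak there and treated libraries had ranks of 21.7, 41.1 and 40.5 (change 34.4, SE 6.50, limma adjusted p = 0.00455). It passed the filter through its treated libraries alone, which fixed the direction, so the p-value is not separate support. This region lies at the far 5′ end of the annotated gene, within 1 kb of a start of LIN7A, and cannot be assigned to either gene. Inside the gene, the region chr12:81146516-81147148 had ranks of 52.8, 49.9 and 56.9 without and 46.1, 43.2 and 48.2 with NaBu and was not called, and it had no peak in the 6 libraries of the NaPr experiment.

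ACSM3, a mitochondrial synthetase that takes butyrate and medium-chain fatty acids, had its clearest change in an intron 10357 bp from the canonical start (chr16:20774371-20775410). Ranks there were 51.2, 39.8 and 34.1 without and 69.9, 77.1 and 76.9 with NaBu (change 32.9, SE 5.08, limma adjusted p = 0.00198). In tags at the summit this was 47, 24 and 25 against 54, 70 and 70. The groups did not overlap, and the call held in all 16 alternatives that gave a value. The NaPr experiment gave 90.3, 87.0 and 90.8 without and 94.2, 95.3 and 95.1 with NaPr (change 5.49, SE 1.17, limma adjusted p = 0.0264). That call was lost without any 1 library (limma adjusted p = 0.0532 to 0.101), with ranks of fold enrichment (0.932) and without a filter (0.106). The promoter of ACSM3, chr16:20763360-20764170, had ranks of 38.5, 35.5 and 45.7 without and 44.4, 43.2 and 56.8 with NaBu, which overlapped (change 8.23, SE 5.99, limma adjusted p = 0.300), and it was not called after NaPr. A further region that rose after NaBu, chr16:20740914-20742227, lies at the start of THUMPD1 (change 4.15, SE 0.96, limma adjusted p = 0.0109, and 0.0556 without treated replicate 2). Of the 11 regions of ACSM3, 5 are also regions of ACSM1, which lies within its annotated body, and the 2 genes cannot be separated there.

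PCCA encodes the biotin-carrying alpha subunit of propionyl-CoA carboxylase and spans chr13:100089015-100530437 on the plus strand. It held 54 of the 141 regions, of which 5 had a peak in all 12 libraries and 15 in a single library. In untreated libraries of the NaPr experiment 15, 12 and 8 of its regions had a peak, and in those of the NaBu experiment 26, 38 and 30. After NaPr 1 of 13 rose, where 3.1% of all tested regions were called higher and 2.22% lower. After NaBu 9 of 37 rose and 10 fell, where the shares over all tested regions were 24% and 13.1%. Whether this gene differs from the rest was not tested. The promoter, chr13:100088392-100089976, which it shares with the divergent transcript PCCA-DT, fell from 94.1, 93.5 and 95.7 to 93.0, 90.3 and 87.7 after NaBu (change −4.08, SE 1.29, limma adjusted p = 0.0371). The groups did not overlap, but the call held only without treated replicate 1, and the limma adjusted p was 0.0690 to 0.127 without any 1 of the other 5 libraries. In tags scaled by background the same fall had a limma adjusted p of 7.99e-05, but by fold ranking it was 0.721 and without a filter 0.0751. After NaPr the promoter stood at 97.4, 98.6 and 98.4 against 99.3, 99.2 and 98.7 and was not called (change −0.91, SE 0.67, limma adjusted p = 0.431).

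Inside PCCA the changes after NaBu were larger. The intronic region chr13:100333985-100334528 had a peak in 1 untreated library, at a rank of 23.4, and in all treated libraries at 74.8, 69.9 and 67.1 (change 62.8, SE 7.57, limma adjusted p = 0.000806). It was the largest rise of the 73 regions tested and was kept in all 14 alternatives that gave a value. The largest fall was in the intronic region chr13:100439384-100439515, from 44.0, 63.1 and 62.5 to no peak in any treated library (change −56.5, SE 6.84, limma adjusted p = 0.000811), a call kept in 13 of 14 alternatives and lost in the top 50000 intervals (0.0953). Neither had a peak in any library of the NaPr experiment, so neither was tested there. After NaBu the rise passed the filter only through its treated libraries and the fall only through its untreated ones. The region that fell is 132 bp wide and lies near chr13:100438178-100438748. That neighbour had no peak in the NaPr experiment either. In the NaBu experiment its ranks were 86.75, 89.08 and 91.12 without and 90.05, 89.23 and 86.99 with NaBu. It was not called (change −0.23, SE 1.32, limma adjusted p = 0.904). Between them chr13:100438898-100439191 was called lower (limma adjusted p = 0.0140). The region that was called in both experiments, chr13:100392633-100393732, lies 303540 bp from the start, and its 3 AP-1 matches are shown above. Its ranks were 77.5, 65.0 and 68.9 without and 91.0, 88.2 and 78.8 with NaPr (change 15.5, SE 3.69, limma adjusted p = 0.0373). In the NaBu experiment they were 73.8, 72.6 and 74.7 without and 82.1, 77.1 and 79.6 with NaBu (change 5.93, SE 1.84, limma adjusted p = 0.0351). Every treated rank lay above every untreated one in both, but tags over background overlapped after NaBu, with 34.7, 33.1 and 33.4 without and 40.8, 32.9 and 35.0 with it. The NaPr call was kept only without untreated replicate 1 and the NaBu call only without treated replicate 2, and the limma adjusted p was otherwise 0.0694 to 0.146 and 0.0573 to 0.0906. By fold ranking both calls were lost (limma adjusted p = 0.117 and 0.162), the NaPr call also without a filter (0.152), and the NaBu call also with average ranks (0.159), in the top 50000 intervals (0.199) and with tags scaled by background (0.549). The next 2 regions along the gene, chr13:100393946-100394270 and chr13:100394385-100394495, had a peak in all 3 untreated libraries of the NaBu experiment and in none of the treated ones, and both fell. Both passed the filter through untreated libraries alone, which fixed their direction.

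Between 5 and 340 kb from the start 7 of 17 tested PCCA regions rose after NaBu and 2 fell, and farther than 340 kb 2 of 19 rose and 7 fell. This division was drawn after the values were seen and was not tested. Over all tested regions 24% were called higher and 13.1% lower after NaBu. Some falls beyond 340 kb, such as chr13:100438898-100439191 and chr13:100439384-100439515, are close neighbours and may not be separate events. Apart from the promoter and chr13:100490023-100491735, the PCCA regions that fell after NaBu had no peak in any library of the NaPr experiment. Over the whole set of 10 genes, 2 regions had a peak in all 3 NaBu libraries and in no untreated one, at ACSS1 and ACSS3, and 4 had the reverse, 3 of them at PCCA. These are 2.74% and 5.48% of the 73 tested, and over all tested regions the shares were 6.41% and 3.72%. With NaPr 0 of 53 regions did either, against 2.95% and 1.5% of all tested regions. Regions of these kinds pass the filter through the group with peaks alone, which fixes the direction of their change.

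**Figure D4:**
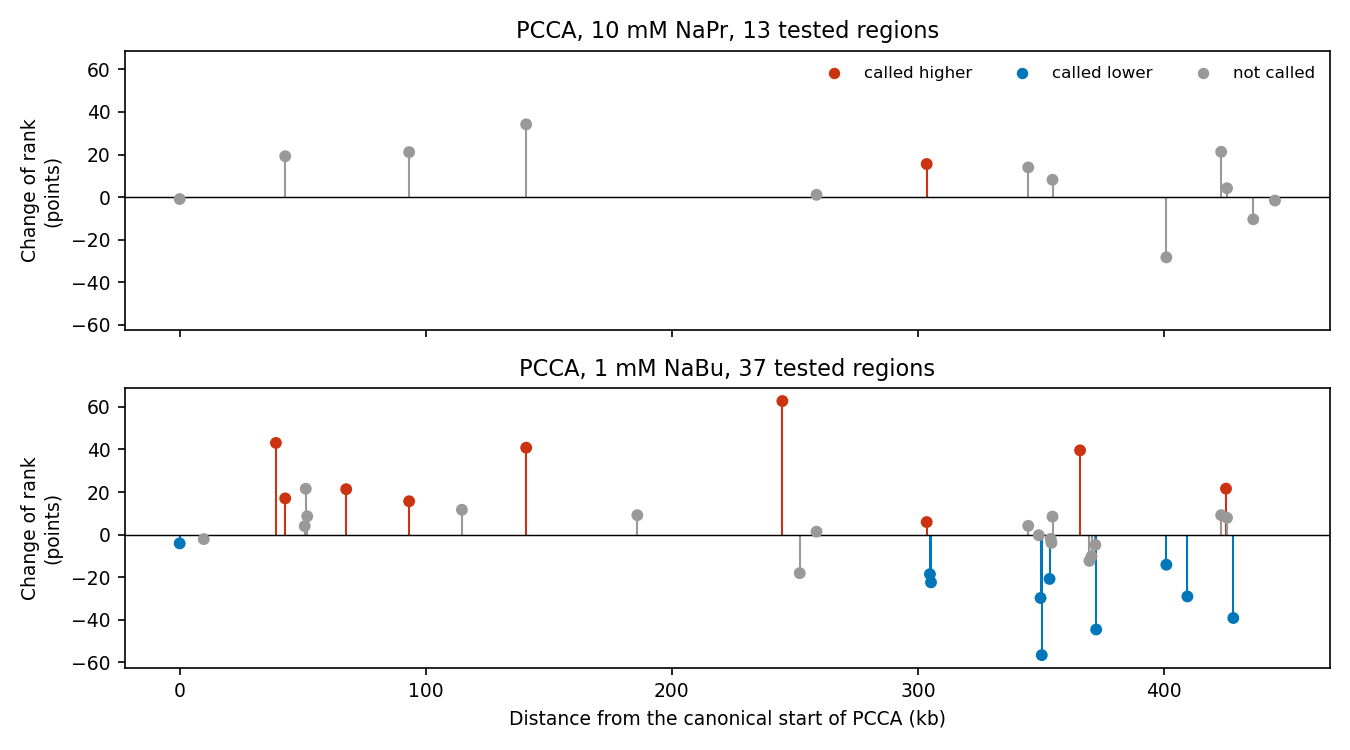
Change of percentile rank, treated minus untreated in percentile points, at tested PCCA regions against distance from the start in kb, for NaPr (top) and NaBu (bottom). Each point is a region joined to 0 by a line and coloured by its limma call, and after NaBu 7 of 9 rises lie within 340 kb of the start and 7 of 10 falls beyond it.

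PCCB encodes the beta subunit, which carries the carboxyltransferase activity, and showed no call. It had 6 regions tested after NaPr and 1 after NaBu, and PCCA had 13 and 37. Over all tested regions 3.1% were called higher and 2.22% lower after NaPr, and 24% and 13.1% after NaBu. So few regions cannot show whether the 2 genes differ. The PCCB promoter, chr3:136250207-136251475, stood at 99.8 to 99.9 in the NaPr experiment (change −0.07, SE 0.58, limma adjusted p = 0.954). In the NaBu experiment it had 99.1, 98.6 and 99.2 without and 99.0, 99.2 and 99.0 with NaBu (change 0.11, SE 0.44, limma adjusted p = 0.862). A rank this near the top leaves little room for a rise. The 9 other PCCB regions had peaks only in libraries of the NaPr experiment, and the 5 of them tested there were not called in limma, with 0 at an unadjusted p below 0.05.

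MCEE encodes methylmalonyl-CoA epimerase, and its promoter region, chr2:71129691-71130877, also covers the start of MPHOSPH10. Its ranks were 99.3, 98.8 and 99.1 without and 98.4, 99.1 and 99.3 with NaBu, and the groups overlapped (change −0.10, SE 0.47, limma adjusted p = 0.881). By fold ranking it was called in the other direction, at 4.02 points (limma adjusted p = 0.0329). After NaPr they were 98.1, 96.3 and 97.0 against 97.2, 94.6 and 94.7 (change 1.66, SE 0.92, limma adjusted p = 0.297). A narrow region beside it, chr2:71130980-71131125, at −751 bp from the MCEE start and within 1 kb of that of MPHOSPH10, behaved otherwise. It fell after NaBu from 82.7, 87.2 and 85.5 to 54.0, 67.1 and 64.0 (change −23.5, SE 3.37, limma adjusted p = 0.00152), with all treated libraries below all untreated ones, and was called in all 16 alternatives. After NaPr the groups overlapped there, with 55.0, 51.9 and 41.0 against 32.5, 46.4 and 41.6 (change −9.14, SE 9.07, limma adjusted p = 0.564). The assignment of this region to either gene cannot be made from the peak lists.

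Of the genes for oxidation and ketone bodies, ACADS had the one promoter called in both experiments. The region is chr12:120725252-120726489, around the start whose sequence with 2 GC boxes is shown above. Ranks were 90.3, 90.9 and 88.6 without and 84.2, 79.0 and 82.5 with NaPr (change −8.01, SE 1.63, limma adjusted p = 0.0226). They were 86.6, 85.5 and 85.8 without and 80.2, 71.2 and 72.5 with NaBu (change −11.3, SE 2.3, limma adjusted p = 0.00621). In both experiments the 3 treated libraries were below the 3 untreated. The NaBu call was kept in all 16 alternatives. The NaPr call was lost without any 1 library (limma adjusted p = 0.0506 to 0.103), with ranks of fold enrichment (0.147), without a filter (0.0833) and with tags scaled by background (0.176). Promoters as a class had more lower than higher calls in both experiments, as given above, and whether ACADS differs from other promoters was not tested.

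Tags at the summit, divided by the mean background tags of their library, show the same region without ranks. For ACADS they were 61.9, 50.5 and 64.9 without and 42.6, 36.2 and 49.2 with NaPr, and 67.7, 57.3 and 59.9 without and 42.5, 29.2 and 29.8 with NaBu. All treated values were below all untreated values in each. The PCCA promoter had 125, 112 and 129 times the background without and 92.3, 73.9 and 66.0 with NaBu, and the ACSS1 promoter 90.1, 69.1 and 73.6 without and 62.7, 33.7 and 42.1 with NaBu, and neither pair of groups overlapped. With this scaling limma called 17176 of 72559 regions higher and 19133 lower after NaBu. After NaPr it called 8783 of 65178 higher and 712 lower.

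**Figure D5:**
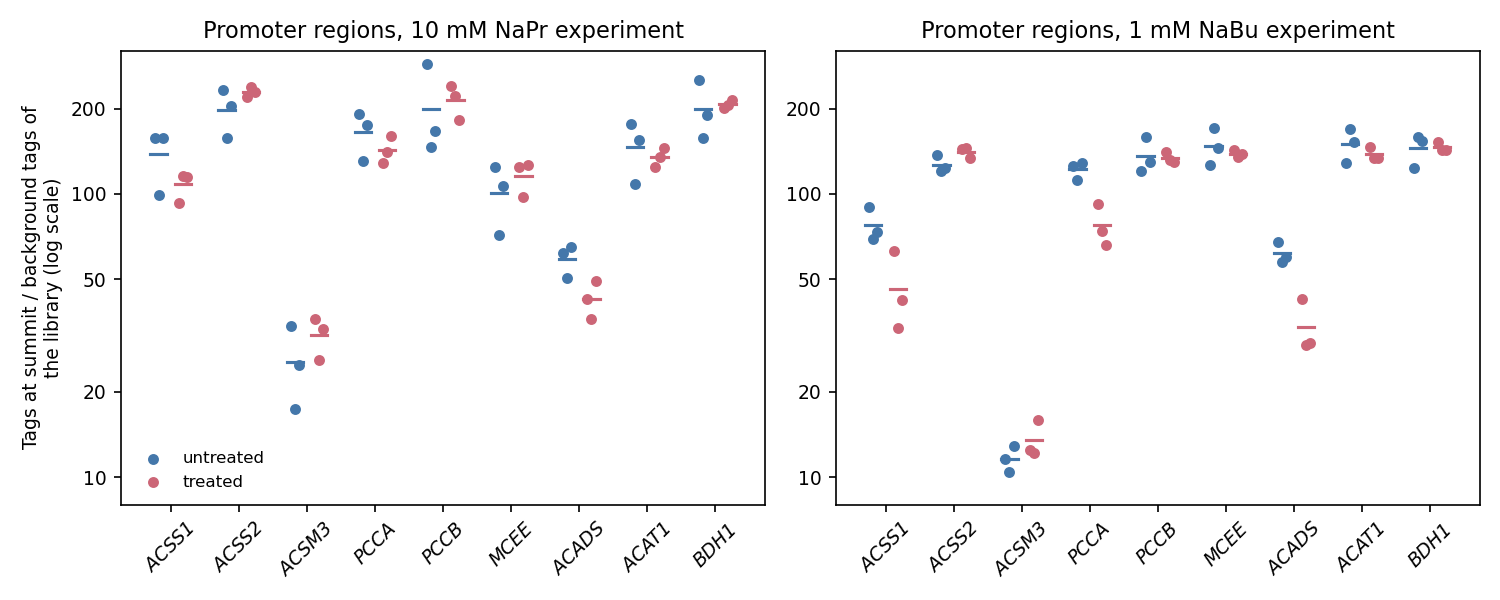
Tags at the summit of 9 promoter regions, divided by the mean background tags of the library, in the NaPr (left) and NaBu (right) experiments, on a logarithmic axis. Points are libraries, untreated in blue and treated in red, and bars are arithmetic means of 3 libraries. ACADS, PCCA and ACSS1 lie lower in all 3 NaBu libraries than in all 3 untreated ones. With this scaling limma called 19133 of 72559 regions lower after NaBu.

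ACAT1 and BDH1 had promoters near the top of each list and no promoter call. The ACAT1 promoter, chr11:108121082-108122437, had 99.3, 98.6 and 99.2 without and 98.1, 98.5 and 98.2 with NaPr (change −0.77, SE 0.64, limma adjusted p = 0.486). With NaBu it had 98.9, 97.4 and 98.8 against 99.1, 98.5 and 98.3 (change −0.29, SE 0.56, limma adjusted p = 0.708). The BDH1 promoter, chr3:197554400-197556326, changed by −0.06 points after NaPr (SE 0.60, limma adjusted p = 0.965) and 0.65 after NaBu (SE 0.47, limma adjusted p = 0.292). Inside BDH1, at another annotated start, the region chr3:197516386-197517201 had 52.2, 32.0 and 30.9 without and 68.3, 67.5 and 50.5 with NaBu. It was called higher although untreated replicate 1 lay above treated replicate 3 (change 23.7, SE 7.52, limma adjusted p = 0.0376), and the call was lost without treated replicate 1 or 2 or untreated replicate 2 or 3 (0.116 to 0.136), by fold ranking (0.129), with average ranks (0.0767), without a filter (0.0663) and in the top 50000 intervals (0.10). Its summit window held 1 AP-1 match. With NaPr it had 86.3, 82.7 and 85.1 against 80.8, 76.9 and 77.2, and was not called (change 6.39, SE 1.91, limma adjusted p = 0.0753). An intronic region, chr3:197520311-197521662, fell after NaBu from 96.1, 94.4 and 97.1 to 92.8, 91.5 and 92.1 (change −3.77, SE 0.82, limma adjusted p = 0.00833) and was called in all 16 alternatives. In the NaPr experiment it was far weaker, with no peak, 41.1 and 25.7 without and 54.2, 67.6 and 48.8 with NaPr (change 34.6, SE 12.3, limma adjusted p = 0.124).

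The calls can also be read by role. Among the 50 regions of the synthetase genes, 3 of 20 tested rose after NaPr and 0 fell, with 6 at an unadjusted p below 0.05 in limma, and 8 of 24 rose and 1 fell after NaBu. At the carboxylase and epimerase genes, with 69 regions, 1 of 21 rose after NaPr and 0 fell, and 9 of 40 rose and 11 fell after NaBu. At the genes for oxidation and ketone bodies, with 22 regions, 0 of 12 rose and 1 fell after NaPr, with 3 at an unadjusted p below 0.05, and 1 of 9 rose and 2 fell after NaBu. The differences between these groups were not tested. Over all tested regions the shares called higher and lower were 3.1% and 2.22% after NaPr, and 24% and 13.1% after NaBu. In limma 28645 of all 124067 regions had an unadjusted p below 0.05 after NaPr.

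The 39 other genes listed for the same routes had 241 regions. After NaPr 4 of 133 rose and 2 fell, and after NaBu 29 of 139 rose and 14 fell, with medians of −0.111 and 0.686 points. Over all tested regions 3.1% were called higher and 2.22% lower after NaPr, and 24% and 13.1% after NaBu. By route, after NaBu, 13 of 59 rose and 8 fell at genes of mitochondrial beta-oxidation, 5 of 20 rose and 3 fell at ketone body genes, 6 of 33 rose and 2 fell at genes that feed propionyl-CoA from branched-chain amino acids, and 5 of 21 rose and 1 fell in the rest of the path from propionyl-CoA to succinyl-CoA. At the other medium-chain synthetase genes 0 of 6 were called in limma, with 1 at an unadjusted p below 0.05. The promoter of ACADVL, the very-long-chain acyl-CoA dehydrogenase, which lies head to head with DLG4 (chr17:7219557-7221195), fell in both experiments. Its ranks went from 93.7, 93.7 and 92.5 to 85.3, 83.7 and 83.2 with NaPr (change −9.21, SE 1.18, limma adjusted p = 0.00415), and that call was lost without treated replicate 2 (0.0510) or 3 (0.0581), by fold ranking (0.407) and with tags scaled by background (0.0873). They went from 90.7, 92.1 and 91.0 to 78.7, 81.5 and 83.7 with NaBu (change −10.0, SE 1.36, limma adjusted p = 0.00123), and this call was lost only with ranks of fold enrichment (0.412). With NaBu the promoters of CPT2, a carnitine palmitoyltransferase, and ACADL, the long-chain dehydrogenase, fell too. CPT2 went from 91.9, 89.3 and 89.1 to 83.1, 81.4 and 80.4 (change −8.47, SE 1.23, limma adjusted p = 0.00155, and 0.0870 by fold ranking) and ACADL from 89.2, 88.2 and 89.1 to 82.6, 81.1 and 80.1 (change −7.58, SE 1.08, limma adjusted p = 0.00149). The promoters of HADH, near a start of CYP2U1-AS1, which fell (change −1.92, SE 0.66, limma adjusted p = 0.0499), and SUCLA2, near a start of SUCLA2-AS1, which rose (change 1.62, SE 0.54, limma adjusted p = 0.0456), were each lost without 5 of the 6 libraries in turn, with limma adjusted p-values up to 0.145 and 0.102, and changed direction under other measures.

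The untreated libraries of the NaPr and NaBu experiments differed from each other at these genes. Of 56 regions with a peak in all 3 untreated libraries of 1 or both experiments, 25 (44.6%) had one in all 6, 4 (7.14%) in those of the NaPr experiment alone and 17 (30.4%) in those of the NaBu experiment alone. Over all 102527 such regions the shares were 54.2%, 11.1% and 18.5%. PCCA held 13 of the 17, and 6 of its 24 such regions were shared by all 6 libraries. The experiments differed in date, and 5 of the 6 libraries of the NaPr experiment had fewer background tags than any of the NaBu experiment, so that date and depth cannot be told apart. The median GC content was 52.2% in the summit windows of 90 tested regions and 51.5% over all tested regions. The 12 RefSeq promoters of 8 of the 10 genes had a median of 64.2%, and all RefSeq promoters had 58.7%. A GC box was found in 14 of the 90 windows (15.6%, with 14.2% over all tested regions) and an E-box in 4 (4.44%, with 4.05%), and the other motifs but AP-1 in none.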

How the data were processed

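ATAC-seq was performed on SW480 cells, 3 libraries in each of 4 groups, and 8 libraries of the mouse line CT26 were not used here. Per the labels, the submitters' processing notes name bcl2fastq 2.17.1, cutadapt 1.9.1, Bowtie2 2.3.1 and MACS2 2.1.0 and the build hg38 (GRCh38.p13). The authors called peaks in each library separately, not on pooled replicates, and deposited for each peak the fold enrichment over background (a ratio), the −log10 p-value and the −log10 q-value. Lists hold no reads and stop near 300000 summits, so that weak peaks are cut at a −log10 p of 3.37 to 9.38 depending on the library, and the read-based test of the study could not be run.

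Intervals of the 12 lists were merged where they overlapped by 1 bp or more and placed on GENCODE 44. The percentile rank of the highest −log10 p among regions with a peak in the library (0 without a peak) was tested by limma 3.58.1 in R 4.3.3 (lmFit, eBayes with trend, two-sided), within each experiment, over all regions with a peak in at least 2 of 6 libraries, with Benjamini-Hochberg adjustment over all of them. Tags at summits were solved from the deposited fold and −log10 p (96.9 to 99.99% of summits). The smallest exact permutation p for 3 against 3 libraries is 0.1, so no single value was tested that way. Scripts used Python 3.11.15, pandas 2.3.3, numpy 2.4.6 and scipy 1.17.1, and were tested on simulated data. Sequences are from RefSeq promoters (GRCh38.p14) and the hg38 genome.

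The genes, lists and motifs were chosen with earlier results of these data known. Named were, for each gene, the promoter region and, per experiment, the called regions with the largest rise and fall, and, for the other genes of the routes, up to 5 called promoters per experiment. Alternatives were the fold ranking, a −log10 q of at least 2, the top 50000 intervals, 100 bp of overlap, merging within the experiment, no filter, average ranks with ties, tags under 2 scalings, a flank of 10 kb, the replicate number as a block, and leaving out each library.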

Additional observations from a re-analysis of the deposited data

How the results depend on the processing

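Peak lists limit what can be said, since regions below each list's weakest peak are at 0, and 5 of the 6 NaPr-experiment libraries have fewer background tags than any NaBu-experiment library. For NaPr, regions of the 10 genes called higher, 4 as reported, were 7 with flanks of 10 kb, 7 at a −log10 q of at least 2, 0 by fold ranking and 0 without a filter (limma, with 8 and 14 at an unadjusted p below 0.05). Those called lower, 1 as reported, were 0 by fold ranking, without a filter and with tags scaled by background, 2 in the top 50000 intervals or with lists merged within the experiment, and 6 with tags scaled by median. For the 39 other genes the higher calls were 0 by fold ranking and 1 without a filter, and the lower calls 0 by fold ranking, 4 in the top 50000 intervals, 1 without a filter, 7 with average ranks and 25 with tags scaled by median. Calls over all regions, 6598 as reported, were 0 by fold ranking (limma, with 20921 at an unadjusted p below 0.05), 1313 without a filter, 11650 with average ranks and 19999 with tags scaled by median. For NaBu, higher calls of the 10 genes were 10 by fold ranking, 7 in the top 50000 intervals and 7 under either tag scaling, and lower calls 7 in the top 50000. For the 39 other genes the higher calls were 17 in the top 50000 intervals and 18 under either tag scaling, and the lower calls 9 by fold ranking and 22 with average ranks. Calls over all regions, 45903 as reported, were 22587 in the top 50000 intervals. The top 50000 and the tags test fewer regions by construction, and for the other settings the cause was not tested.

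Leaving out 1 library gave 0 to 2 higher and 0 lower NaPr calls at the 10 genes, 0 to 3 higher and 0 to 2 lower at the 39 others and 0 to 3179 over all regions. For NaBu it gave 12 to 16 higher and 8 to 14 lower, 23 to 29 higher and 11 to 14 lower, and 36865 to 42215. Changes of direction were listed only for named regions called in the main fit or in the alternative. After NaBu these were the MCEE promoter, at 4.02 points by fold ranking (limma adjusted p = 0.0329), the HADH promoter, at 0.37 by fold ranking (0.790), and the SUCLA2 promoter, at a log2 change of −0.025 and −0.021 with tags scaled by background and by median (0.834 and 0.865). Same-numbered untreated and treated libraries correlated at 0.0049 to 0.0184 (NaPr) and 0.0084 to 0.0313 (NaBu). Differently numbered ones correlated at −0.0136 to 0.0041 (NaPr) and −0.0289 to 0.0123 (NaBu). Whether the numbers mark pairs was not settled, and the main fits did not pair them. With the replicate block the 10 genes had 4 higher and 1 lower NaPr calls and 18 higher and 15 lower NaBu calls, the 39 others 5 and 4, and 30 and 16, and all regions 7647 and 47756. The ACSS1 promoter after NaBu was then called (limma adjusted p = 0.0139). For the named regions that were called, the call held in 44 of 80 values for NaPr and 226 of 291 for NaBu. Some of the NaBu regions passed the filter only through the group with the higher ranks, as given above.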
